A study of Homo sapiens with 24 samples.

Results

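The changes found with doxycycline induction of a YWHAE-NUTM2 fusion gene in both of 2 human cell lines were measured as the mean of 4 doxycycline minus mock effects. These effects were taken in HEK293 at 72 and 24 h and in BJ-hTERT at 72 and 24 h, and all 24 arrays of the series were used, so no array was left aside. HEK293 is an embryonic kidney line transformed with adenovirus DNA, and BJ-hTERT is a line of foreskin fibroblasts immortalised with telomerase. Both carried an inducible gene for the fusion with an HA tag, in the doxycycline and the mock cells alike, and whether each line was 1 clone is not given in the sources used here. The 8 groups of 3 arrays were HEK293 with doxycycline for 72 h, HEK293 mock for 72 h, HEK293 with doxycycline for 24 h, HEK293 mock for 24 h, and the same 4 for BJ-hTERT. Mock cells received the water vehicle. No group held doxycycline-treated cells without the fusion gene, so a response to the drug and a response to the fusion cannot be told apart in any value below.

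YWHAE encodes 14-3-3 epsilon, one of a family of dimeric adaptor proteins that bind phosphorylated partners and often hold them in the cytoplasm, class IIa histone deacetylases and RAF kinases among them. Its fusion to a NUTM2 gene is known from clear cell sarcoma of the kidney and from high-grade endometrial stromal sarcoma. Both tumours are also known with internal tandem duplications or fusions of BCOR, a corepressor of the Polycomb group. The RAS and ERK pathway, which RAF kinases feed, is commonly read through its early targets, the ETS factors ETV4 and ETV5, the SPRY feedback inhibitors and the phosphatase DUSP6.

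Levels are the log2 array values averaged over the probe sets of a gene that carry 1 symbol, and 17329 genes passed a filter on low values. The measured medians of the 24 arrays lay within 0.137 log2 of each other. Arrays of 1 group correlated at 0.974 to 0.980 across genes, against 0.775 to 0.800 for arrays of different lines. Of 17 fibroblast markers, 16 were higher in BJ-hTERT, and of 10 markers of HEK293, 7 were higher in HEK293. The median level was 2.33 in HEK293 and 2.33 in BJ-hTERT over 8 lymphoid and myeloid markers, 2.64 in HEK293 and 2.94 in BJ-hTERT over 7 endothelial markers, and 2.21 in HEK293 and 2.24 in BJ-hTERT over 8 keratinocyte and melanocyte markers. The highest of these 23 markers was TEK, an endothelial receptor kinase, at 5.70 in BJ-hTERT against 2.22 in HEK293. On 3 arrays (HEK293, doxycycline, 24 h) the title has the last digits of the line's name exchanged, which was taken as a slip. The labels call the arrays triplicates without saying that they came from separate cultures, so the spread behind each p-value is that of these arrays and may be technical.

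Induction was first read from the NUTM2 probe sets, because no probe set carries YWHAE as its only symbol. NUTM2B stood at 5.34, 5.99 and 5.94 with doxycycline against 3.64, 3.61 and 3.02 in mock cells at 72 h, and 5.88, 6.23 and 6.06 with doxycycline against 4.21, 3.17 and 4.30 in mock cells at 24 h in HEK293. In BJ-hTERT it stood at 5.57, 6.06 and 6.37 with doxycycline against 3.57, 4.13 and 4.46 in mock cells at 72 h, and 5.95, 6.03 and 6.51 with doxycycline against 4.20, 4.06 and 4.54 in mock cells at 24 h. The doxycycline arrays lay above the mock arrays in all 4 comparisons, with a mean effect of 2.08 ± 0.147 log2 (SE of the limma contrast, 4.24-fold, adjusted p = 1.97e-08). NUTM2A and NUTM2G also rose in both lines, by 1.53 ± 0.193 and 1.07 ± 0.144 on the mean. The 8 probe sets of NUTM2G had mean effects from -0.73 to 4.29, with a median of 0.60. With the median of the probe sets neither NUTM2A nor NUTM2G was called in both lines. The NUTM2A call in both lines held without 18 of the 24 arrays. The NUTM2 genes are near-identical copies, so which copy a probe set reads is uncertain, and the rise shows NUTM2 sequence rather than 1 named gene.

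Across all genes, the mean of the 4 effects called 943 genes up (5.44% of those tested) and 802 down (4.63%) at an adjusted p under 0.05, or 494 and 521 when the median of the probe sets stood for the gene. In most of them the effect in BJ-hTERT was the larger: 1407 of the 1745 called genes (80.6%) had the larger effect there, and in 916 (52.5%) the difference between the lines was itself called. The effects had 1 sign in all 4 comparisons in 910 of the 1745 (52.1%), of which 500 rose and 410 fell. Without any test, 8.89% of all genes had 4 positive effects and 7.67% had 4 negative effects. In HEK293 alone 309 genes rose (1.78%) and 65 fell (0.375%), and in BJ-hTERT 1453 rose (8.38%) and 1342 fell (7.74%). Called up on the mean were 157 genes called up in HEK293 alone, 619 called up in BJ-hTERT alone, 57 called in both, 107 called in neither line by itself and 3 with opposite calls. For the falls these counts were 22, 702, 8, 70 and 0.

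The genes called in both lines in 1 direction numbered 57 up (0.329%) and 8 down (0.0462%). The 57 made up 18.4% of the HEK293 rises, against 8.38% of all genes called up in BJ-hTERT. They made up 3.92% of the BJ-hTERT rises, against 1.78% of all genes called up in HEK293. The 8 made up 12.3% of the HEK293 falls, against 7.74% of all genes called down in BJ-hTERT. They made up 0.596% of the BJ-hTERT falls, against 0.375% of all genes called down in HEK293. Of the 309 genes that rose in HEK293, 57.6% had a positive effect in BJ-hTERT, against 50.5% of all genes. Of the 65 that fell in HEK293, 44.6% had a negative effect in BJ-hTERT, against 49.5% of all genes. Across the 17329 genes the HEK293 and BJ-hTERT mean effects correlated at r = -0.0034, while the 72 h and 24 h effects within a line correlated at 0.233 in HEK293 and 0.479 in BJ-hTERT. Genes are not independent replicates, so these correlations are descriptions. The genes called in both lines were few beside those called in 1 line, as the plot of the mean effect in each line shows. In bulk RNA, a change in all cells and a larger change in some of them cannot be told apart.

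**Figure D1:**
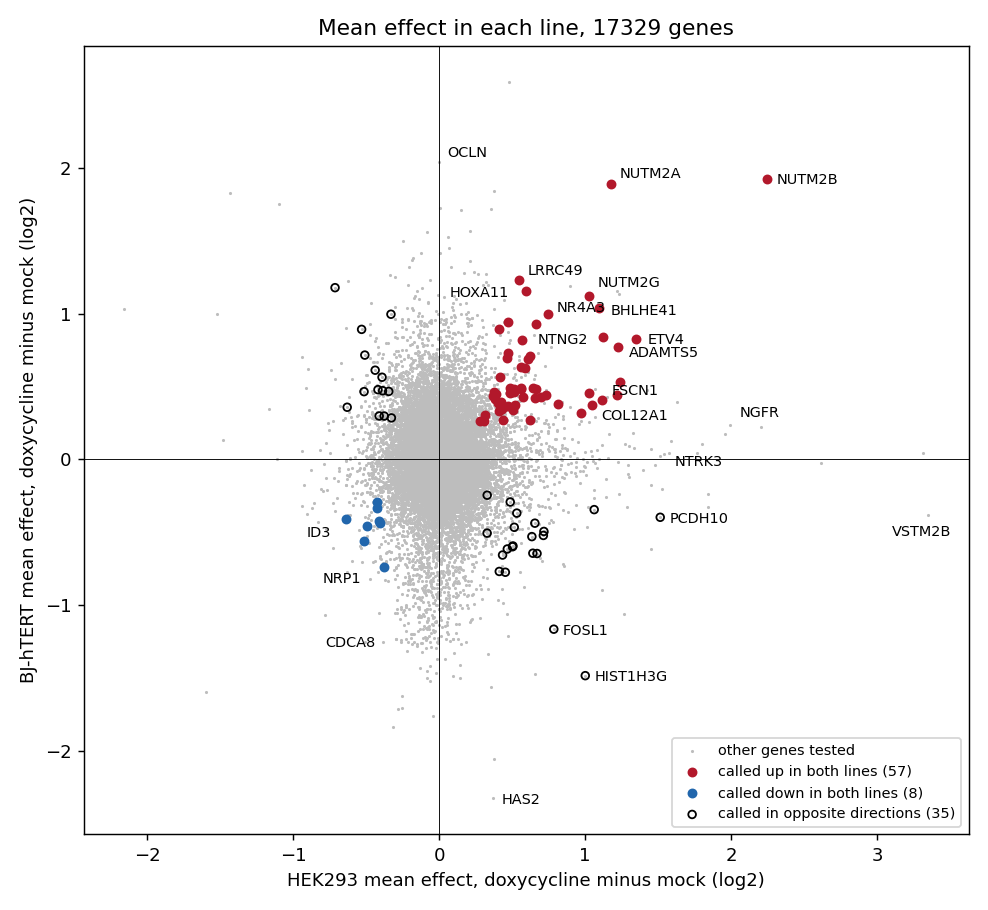
Mean doxycycline minus mock effect (log2) in HEK293 (horizontal) against BJ-hTERT (vertical) for 17329 genes, each point 1 gene and the mean of 72 h and 24 h. The 57 genes called up in both lines (red) and 8 called down in both (blue) lie in the upper right and lower left, while the 35 genes called in opposite directions (open circles) lie in the other corners and most of the cloud follows 1 axis or the other.

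The 65 genes were grouped by role after their values were seen, for description only. The groups held 3 NUTM2 genes, 15 transcription and chromatin genes (14 up and 1 down), 18 signalling genes (15 up and 3 down), 15 matrix, adhesion and movement genes (14 up and 1 down) and 14 others (11 up and 3 down). Of the 57 risers 55 had 4 positive effects, and of the 8 fallers 6 had 4 negative effects. The median mean effect was 0.57 log2 for the risers (range 0.27 to 2.08) and -0.45 for the fallers (range -0.55 to -0.36), values that the calls themselves select. A called line difference was present in 10 of the 57 (17.5%) and in 0 of the 8. Among all genes tested 6.19% had a called higher effect in HEK293 and 5.23% in BJ-hTERT. For those 10 the same direction did not mean the same size. Of the 976 probe sets of these genes, 916 (93.9%) moved in the gene's direction on the mean and 792 (81.1%) did so in both lines. The gene effect is the mean of these same probe sets and selected the genes, so agreement was partly built in. The share over all genes was not taken. The count of genes called in both lines depended on the processing. With the median in place of the mean of probe sets it was 19 up and 1 down. Of these 19 rises 15 were among the 57, and the 1 fall was not among the 8, so 0 of the 8 falls were kept. With the 72 h arrays alone the count was 11 up and 2 down, and with the 24 h arrays alone 2 up and 0 down. Without single arrays it ran from 38 to 51 up and from 4 to 8 down.

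**Figure D2:**
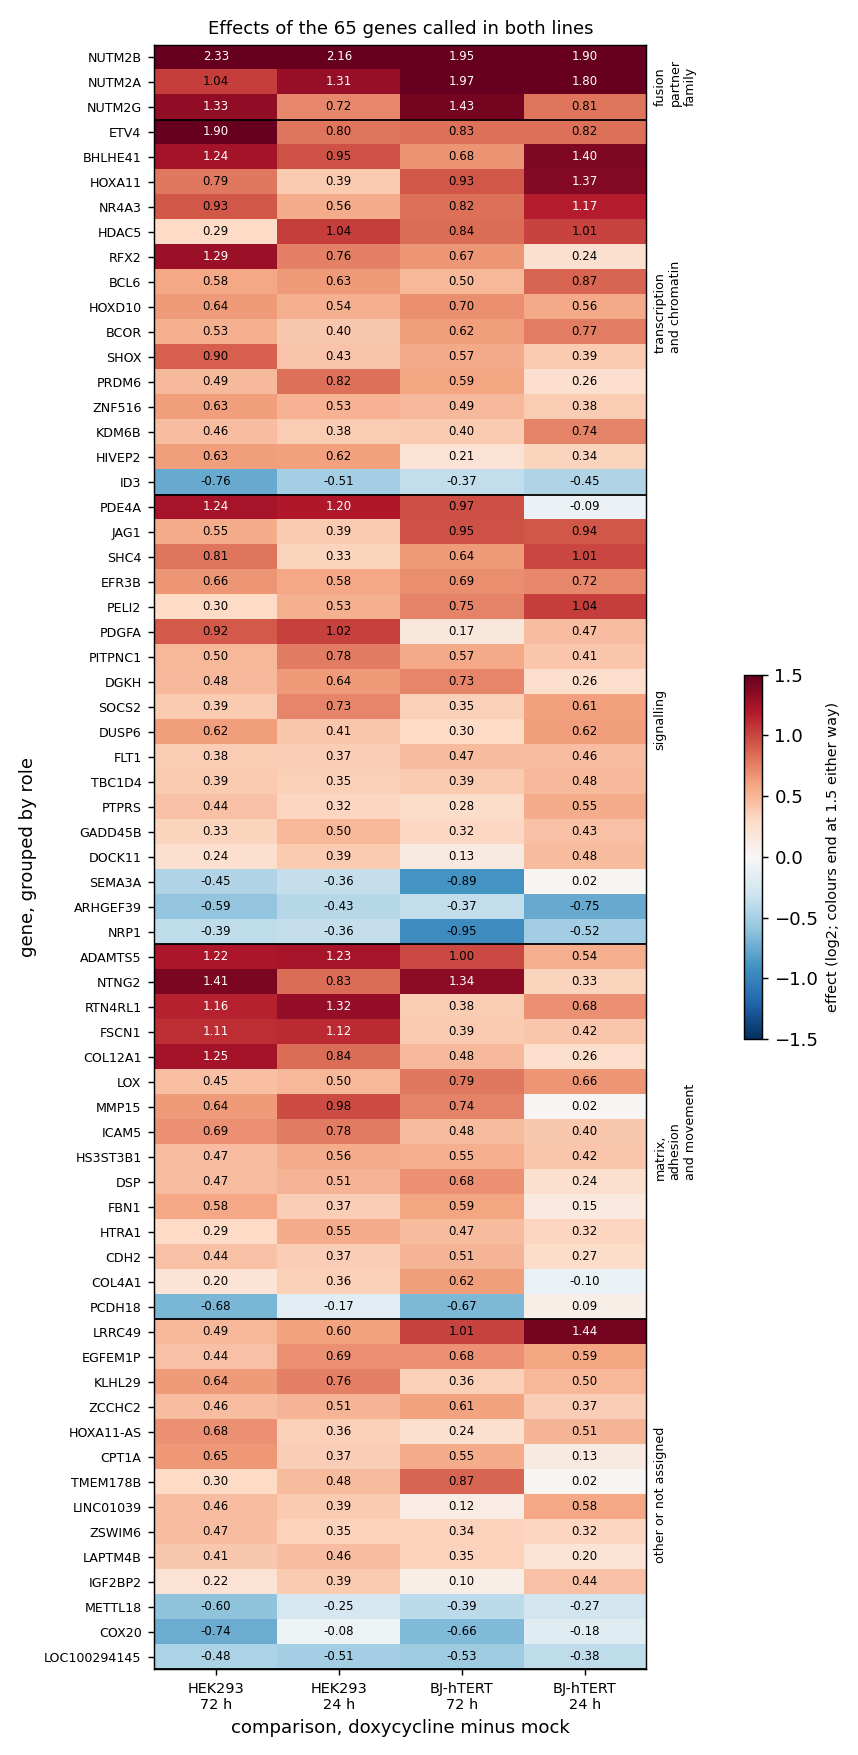
Doxycycline minus mock effects (log2, printed in each cell and shown by colour) of the 65 genes called in both lines, in rows by role and in columns by line and time. The NUTM2 genes and ETV4 head the rises and rows of 1 colour show genes that moved the same way in all 4 comparisons, with pale cells in BJ-hTERT at 24 h for PDE4A (-0.09), MMP15 (0.02) and COL4A1 (-0.10).

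Upstream sequence was set beside the 65 genes for 4 of them, 3 transcription or matrix genes and 1 signalling adaptor, because each holds a match to a factor motif whose targets were among the gene lists examined. The 250 bases before the annotated start were taken from RefSeq (GRCh38.p14), in the direction of the gene, with the match in capitals. HOXD10 (chr2:176116528-176116777, plus strand), COL12A1 (chr6:75206054-75206303, minus strand) and NR4A3 (chr9:99821635-99821884, plus strand) hold the TEAD motif GGAATG or, in NR4A3, its reverse complement, and SHC4 (chr15:48963920-48964169, minus strand) holds the reverse complement of the AP-1 motif TGACTCA.
HOXD10: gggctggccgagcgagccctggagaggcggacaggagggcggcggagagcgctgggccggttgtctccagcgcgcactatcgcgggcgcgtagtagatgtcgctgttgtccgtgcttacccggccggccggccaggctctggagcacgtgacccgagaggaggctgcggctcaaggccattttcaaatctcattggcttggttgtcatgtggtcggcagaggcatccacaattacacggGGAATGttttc
COL12A1: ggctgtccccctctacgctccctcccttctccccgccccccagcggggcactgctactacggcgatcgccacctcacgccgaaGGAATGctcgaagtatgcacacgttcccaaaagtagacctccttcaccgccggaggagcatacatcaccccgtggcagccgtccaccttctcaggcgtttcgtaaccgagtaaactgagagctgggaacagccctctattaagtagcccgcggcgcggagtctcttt
NR4A3: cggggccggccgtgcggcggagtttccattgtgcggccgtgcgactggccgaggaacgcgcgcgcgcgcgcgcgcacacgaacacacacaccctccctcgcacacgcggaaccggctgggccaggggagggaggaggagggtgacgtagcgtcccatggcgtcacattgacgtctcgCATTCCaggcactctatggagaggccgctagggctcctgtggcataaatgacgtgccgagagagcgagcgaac
SHC4: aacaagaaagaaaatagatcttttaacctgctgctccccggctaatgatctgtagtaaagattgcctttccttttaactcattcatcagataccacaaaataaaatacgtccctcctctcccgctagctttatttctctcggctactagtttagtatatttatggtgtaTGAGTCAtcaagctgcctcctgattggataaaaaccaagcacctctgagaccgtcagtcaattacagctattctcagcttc
The matches begin 11, 167, 73 and 81 bases before the start. Such windows were found for 44 of the 57 risers and 5 of the 8 fallers, and both strands were searched. TEAD matches stood in 4 of the 44 (9.09%), against 11.9% of 35114 promoters, and AP-1 matches in 2 of the 44 (4.55%), against 4.20%. Each called gene was read by 1 window, while the 35114 count every reference window, whether or not its gene was tested. The shares therefore have unlike bases. The ETS motif CCGGAAG stood in 0 of the 44, against 8.52%, the E2F motif GGCGGGAA in 0 against 2.72%, the CRE motif TGACGTCA in 2 (4.55%) against 1.65%, and the CHR motif TTTGAA in 7 (15.9%) against 13.3%. The HOXD10 window also holds a CHR match, which does not overlap the TEAD match. FBN1 and NUTM2G, whose windows are not shown, hold the remaining TEAD match and the remaining AP-1 match among the risers. Among the 5 fallers TEAD matched in 1 (LOC100294145), CHR in 2 (ID3 and METTL18) and the other motifs in 0. A match is a string of letters and not a bound site.

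Among the transcription genes the smallest adjusted p on the mean was that of ETV4, the ETS factor that ERK signalling turns on. It was called in all 4 comparisons, as were FSCN1 and NUTM2B (3 genes, 0.0173% of those tested). No gene was called down in all 4 by limma, and at an unadjusted p under 0.05 in each comparison 33 genes rose and 6 fell. The 3 became 0 when each comparison was fitted alone and 6 with trend and robust eBayes. ETV4 stood at 5.89, 6.11 and 5.98 with doxycycline against 4.19, 4.08 and 4.01 in mock cells at 72 h, and 5.84, 5.99 and 5.65 with doxycycline against 4.98, 5.25 and 4.84 in mock cells at 24 h in HEK293. Its levels in BJ-hTERT were 5.40, 5.47 and 5.61 with doxycycline against 4.79, 4.70 and 4.51 in mock cells at 72 h, and 5.99, 5.83 and 5.95 with doxycycline against 5.04, 5.27 and 4.98 in mock cells at 24 h. All 12 doxycycline arrays lay above the mock arrays of their own line and time. The mean effect was 1.09 ± 0.0639 log2 (2.13-fold, adjusted p = 3.74e-09), with 1.90 in HEK293 at 72 h, 0.80 in HEK293 at 24 h, 0.83 in BJ-hTERT at 72 h and 0.82 in BJ-hTERT at 24 h. The effect was larger in HEK293 by 0.53 (adjusted p = 0.00929).

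BHLHE41, a repressor within the circadian clock, read 6.75, 6.64 and 6.70 with doxycycline against 5.37, 5.54 and 5.46 in mock cells at 72 h, and 6.47, 6.47 and 6.58 with doxycycline against 5.53, 5.30 and 5.82 in mock cells at 24 h in HEK293. In BJ-hTERT the gene read 5.97, 6.22 and 6.57 with doxycycline against 5.31, 5.41 and 6.0 in mock cells at 72 h, and 6.65, 6.22 and 6.60 with doxycycline against 4.74, 4.73 and 5.81 in mock cells at 24 h. The arrays were apart in 3 comparisons and met in BJ-hTERT at 72 h, where 1 doxycycline array fell below 1 mock array. BHLHE41 rose by 1.10 in HEK293 (adjusted p = 0.000468) and by 1.04 in BJ-hTERT (adjusted p = 0.00013).

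NR4A3, an orphan nuclear receptor of the immediate early class, had levels of 4.50, 4.36 and 4.33 with doxycycline against 3.40, 3.56 and 3.45 in mock cells at 72 h, and 3.76, 4.24 and 3.91 with doxycycline against 3.49, 3.52 and 3.22 in mock cells at 24 h in HEK293. The BJ-hTERT levels were 4.11, 3.80 and 4.26 with doxycycline against 3.06, 3.22 and 3.43 in mock cells at 72 h, and 3.77, 4.07 and 3.91 with doxycycline against 2.77, 2.56 and 2.90 in mock cells at 24 h. The groups did not overlap in any comparison. NR4A3 rose by 0.87 ± 0.0744 on the mean, by 0.74 in HEK293 and by 1.0 in BJ-hTERT.

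HDAC5, a class IIa histone deacetylase that 14-3-3 proteins are known to bind, read 5.77, 6.24 and 6.53 with doxycycline against 5.70, 5.91 and 6.04 in mock cells at 72 h, and 6.05, 6.18 and 5.79 with doxycycline against 5.31, 5.08 and 4.53 in mock cells at 24 h in HEK293. HDAC5 in BJ-hTERT read 7.35, 6.97 and 7.34 with doxycycline against 6.24, 6.46 and 6.44 in mock cells at 72 h, and 7.19, 7.56 and 7.31 with doxycycline against 6.57, 6.05 and 6.40 in mock cells at 24 h. In HEK293 at 72 h the arrays overlapped, and in the other 3 comparisons they were apart. The line means rose by 0.66 in HEK293 (adjusted p = 0.0159) and 0.93 in BJ-hTERT (adjusted p = 0.000104). The HEK293 call was lost without 1 of 2 arrays, at an adjusted p of up to 0.0537.

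HOXD10, a posterior homeobox gene, stood at 9.17, 9.33 and 9.22 with doxycycline against 8.63, 8.47 and 8.69 in mock cells at 72 h, and 9.09, 9.22 and 9.25 with doxycycline against 8.56, 8.61 and 8.78 in mock cells at 24 h in HEK293. HOXD10 levels in BJ-hTERT were 7.77, 7.77 and 7.96 with doxycycline against 7.02, 7.33 and 7.06 in mock cells at 72 h, and 7.88, 8.09 and 7.81 with doxycycline against 7.27, 7.27 and 7.54 in mock cells at 24 h. No doxycycline array overlapped a mock array of its comparison, and the 4 effects lay close together, 0.64 and 0.54 at 72 and 24 h in HEK293 and 0.70 and 0.56 in BJ-hTERT. HOXA11 rose by 0.87 ± 0.0915 on the mean and its antisense gene HOXA11-AS by 0.45 ± 0.089. The pair overlap on opposite strands, and the sources used here do not say how the probe sets treat strand, so the 2 cannot be fully told apart.

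BCL6, a repressor of transcription, and BCOR, the corepressor named for binding it, rose together. BCL6 rose by 0.61 in HEK293 and 0.69 in BJ-hTERT, and BCOR by 0.47 in HEK293 and 0.70 in BJ-hTERT, with arrays apart in all 4 comparisons for each. KDM6B, which removes the methyl marks that Polycomb complexes set, rose by 0.42 in HEK293 and 0.57 in BJ-hTERT. Without single arrays the HEK293 adjusted p of these 3 genes reached 0.0647, 0.0538 and 0.138. The remaining rises in this group were RFX2 (0.74 on the mean), SHOX (0.57), PRDM6 (0.54), ZNF516 (0.50) and HIVEP2 (0.45), which were chosen after their values were seen as members of the count.

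The 1 fall among transcription genes was ID3, an inhibitor that pairs with basic helix-loop-helix factors and keeps them off DNA. ID3 stood at 5.34, 5.44 and 5.19 with doxycycline against 6.15, 5.87 and 6.23 in mock cells at 72 h, and 5.68, 5.69 and 5.91 with doxycycline against 6.40, 6.18 and 6.23 in mock cells at 24 h in HEK293. In BJ-hTERT its levels were 6.48, 6.55 and 6.49 with doxycycline against 6.72, 6.98 and 6.92 in mock cells at 72 h, and 6.90, 6.78 and 6.72 with doxycycline against 7.25, 7.52 and 6.97 in mock cells at 24 h. All doxycycline arrays lay below the mock arrays of their comparison. The mean effect was -0.52 ± 0.0681 (adjusted p = 2.3e-05), with -0.63 in HEK293 and -0.41 in BJ-hTERT.

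**Figure D3:**
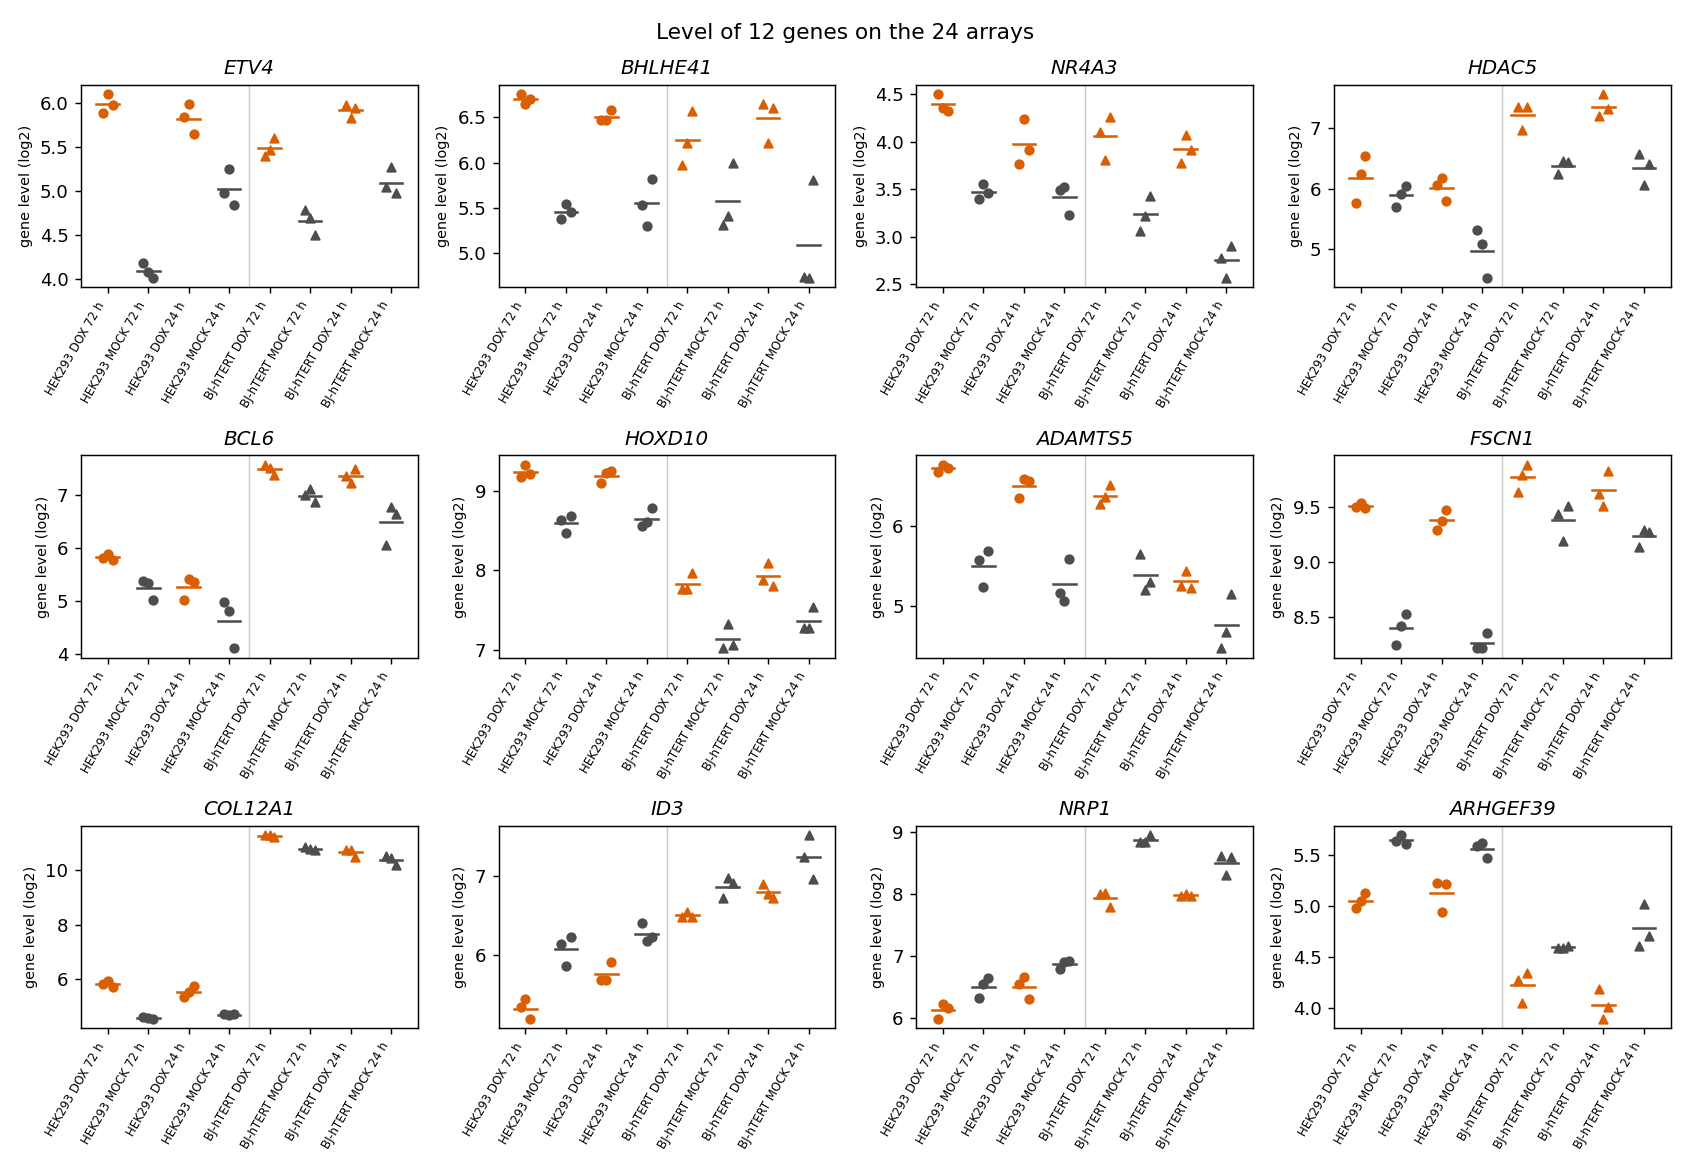
Gene level (log2) of 12 of the genes called in both lines on all 24 arrays, with doxycycline (orange) left of mock (grey) at 72 h and then 24 h, circles for HEK293, triangles for BJ-hTERT, and a bar for the mean of 3 arrays. Axes differ between panels and do not start at 0, and the groups overlap in HEK293 at 72 h for HDAC5, in BJ-hTERT at 72 h for BHLHE41 and in BJ-hTERT at 24 h for COL12A1.

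Signalling genes called in both lines included ligands, receptors, adaptors and enzymes that end signals. JAG1, a Notch ligand, rose by 0.47 in HEK293 and 0.94 in BJ-hTERT. PDGFA, a growth factor chain, rose by 0.97 in HEK293 and 0.32 in BJ-hTERT, and FLT1, a receptor for vascular endothelial growth factor, by 0.38 in HEK293 and 0.46 in BJ-hTERT. The line differences were called for JAG1 (-0.47, adjusted p = 0.0437) and PDGFA (0.65, adjusted p = 0.00658). The BJ-hTERT adjusted p of PDGFA reached 0.104 without 1 array, and the call held without 8 of the 24.

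SHC4, an adaptor of the SHC family that links tyrosine kinases to RAS, rose by 0.70 ± 0.0947 on the mean. EFR3B, which helps place a phosphatidylinositol kinase at the plasma membrane, stood at 6.84, 7.01 and 6.77 with doxycycline against 6.28, 5.92 and 6.43 in mock cells at 72 h, and 6.93, 6.62 and 6.51 with doxycycline against 6.07, 6.29 and 5.96 in mock cells at 24 h in HEK293. In BJ-hTERT EFR3B was low, at 4.25, 4.24 and 4.17 with doxycycline against 3.22, 3.50 and 3.85 in mock cells at 72 h, and 4.10, 4.12 and 4.22 with doxycycline against 3.58, 3.28 and 3.41 in mock cells at 24 h. Its groups were apart in all 4 comparisons, and the effects ran from 0.58 to 0.72. Lipid signalling also held DGKH, a diacylglycerol kinase (0.53 ± 0.0651), and PITPNC1, a phosphatidylinositol transfer protein (0.57 ± 0.0881).

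DUSP6, the phosphatase that inactivates ERK, rose by 0.52 in HEK293 (adjusted p = 0.0451) and 0.46 in BJ-hTERT (adjusted p = 0.0204), but the call in both lines held without only 4 of the 24 arrays. SOCS2, an inhibitor of cytokine receptor signalling, rose by 0.56 in HEK293 and 0.48 in BJ-hTERT. It kept its call without each array but lost it with the median of probe sets. PDE4A, which breaks down cyclic AMP, had effects of 1.24 and 1.20 in HEK293 at 72 and 24 h and of 0.97 and -0.09 in BJ-hTERT. The BJ-hTERT mean of PDE4A thus rests on 72 h. PELI2 (0.65), PTPRS (0.40), TBC1D4 (0.40), GADD45B (0.40) and DOCK11 (0.31) completed the rises on the mean of the 4 effects.

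Both partners of 1 guidance pair fell. NRP1, the coreceptor for semaphorin 3A and for vascular endothelial growth factor, read 5.98, 6.22 and 6.15 with doxycycline against 6.32, 6.55 and 6.64 in mock cells at 72 h, and 6.55, 6.66 and 6.30 with doxycycline against 6.78, 6.90 and 6.92 in mock cells at 24 h in HEK293. NRP1 in BJ-hTERT read 8.0, 8.02 and 7.78 with doxycycline against 8.85, 8.84 and 8.95 in mock cells at 72 h, and 7.97, 8.01 and 7.97 with doxycycline against 8.61, 8.30 and 8.60 in mock cells at 24 h. The doxycycline arrays lay below mock in all 4 comparisons. NRP1 fell by 0.37 in HEK293 (adjusted p = 0.0227) and by 0.73 in BJ-hTERT (adjusted p = 3.23e-06), and without single arrays the HEK293 adjusted p reached 0.0711. SEMA3A, its ligand, had effects of -0.45 and -0.36 at 72 and 24 h in HEK293 and of -0.89 and 0.02 in BJ-hTERT, and its call held without 10 of the 24 arrays. ARHGEF39 fell by 0.54 on the mean, with arrays apart in all 4 comparisons and the call kept without each array. With the median of probe sets the call in both lines was lost for NRP1, SEMA3A and ARHGEF39 alike.

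Among the 65 genes, 14 of the 15 grouped under matrix, adhesion and movement rose, beside 57 of all 65. ADAMTS5, a protease that cleaves aggrecan, stood at 6.68, 6.77 and 6.72 with doxycycline against 5.58, 5.24 and 5.69 in mock cells at 72 h, and 6.35, 6.59 and 6.56 with doxycycline against 5.16, 5.06 and 5.59 in mock cells at 24 h in HEK293. ADAMTS5 levels in BJ-hTERT were 6.27, 6.36 and 6.51 with doxycycline against 5.66, 5.20 and 5.30 in mock cells at 72 h, and 5.26, 5.44 and 5.23 with doxycycline against 4.47, 4.68 and 5.15 in mock cells at 24 h. The groups were apart throughout, and the mean effect was 1.0 ± 0.0865 log2 (1.99-fold, adjusted p = 1.8e-07). FSCN1, which bundles actin filaments, had levels of 9.50, 9.54 and 9.49 with doxycycline against 8.24, 8.42 and 8.53 in mock cells at 72 h, and 9.29, 9.37 and 9.47 with doxycycline against 8.21, 8.21 and 8.35 in mock cells at 24 h in HEK293. Its BJ-hTERT levels were 9.64, 9.79 and 9.89 with doxycycline against 9.43, 9.19 and 9.51 in mock cells at 72 h, and 9.62, 9.51 and 9.83 with doxycycline against 9.14, 9.29 and 9.27 in mock cells at 24 h. The BJ-hTERT mock arrays read higher than the HEK293 mock arrays. The effect was 1.12 in HEK293 and 0.41 in BJ-hTERT, a called difference of 0.71 (adjusted p = 0.00032).

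COL12A1, a collagen that sits on fibril surfaces, read 5.83, 5.93 and 5.68 with doxycycline against 4.59, 4.57 and 4.53 in mock cells at 72 h, and 5.34, 5.51 and 5.74 with doxycycline against 4.71, 4.66 and 4.69 in mock cells at 24 h in HEK293. In BJ-hTERT, where its level was far higher, COL12A1 read 11.30, 11.29 and 11.23 with doxycycline against 10.86, 10.78 and 10.74 in mock cells at 72 h, and 10.76, 10.74 and 10.49 with doxycycline against 10.52, 10.47 and 10.20 in mock cells at 24 h. Only the BJ-hTERT 24 h groups overlapped. The effect was 1.05 in HEK293 and 0.37 in BJ-hTERT, with a called line difference of 0.67 (adjusted p = 0.000579). LOX, which crosslinks collagen and elastin, rose by 0.47 in HEK293 and 0.73 in BJ-hTERT. FBN1, the microfibril protein fibrillin, rose by 0.42 on the mean, and COL4A1, a basement membrane collagen, by 0.27.

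Among adhesion genes NTNG2, a membrane-anchored netrin relative, rose by 1.12 in HEK293 and 0.84 in BJ-hTERT. DSP, the desmosomal plaque protein, rose by 0.47 ± 0.0573 and CDH2, N-cadherin, by 0.40 ± 0.0555 on the mean. RTN4RL1, a relative of the Nogo receptor read by 2 probe sets, had the larger effect in HEK293 (1.24 against 0.53 in BJ-hTERT). MMP15 (0.60), ICAM5 (0.59), HS3ST3B1 (0.50) and HTRA1 (0.41) completed the rises, and PCDH18, a protocadherin, fell by 0.36 on the mean with a positive effect of 0.09 in BJ-hTERT at 24 h.

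Of the others, LRRC49 rose by 0.55 in HEK293 and 1.23 in BJ-hTERT, with arrays apart in all 4 comparisons. CPT1A, which brings fatty acids into mitochondria, rose by 0.43 and IGF2BP2, an RNA-binding protein, by 0.29 on the mean. EGFEM1P (0.60), KLHL29 (0.56), ZCCHC2 (0.49), TMEM178B (0.42), LINC01039 (0.39), ZSWIM6 (0.37) and LAPTM4B (0.35) also rose. COX20, an assembly factor of cytochrome oxidase, METTL18, a methyltransferase, and LOC100294145 fell, by 0.42, 0.38 and 0.48. COX20 had effects of -0.74 at 72 h and -0.08 at 24 h in HEK293, and of -0.66 at 72 h and -0.18 at 24 h in BJ-hTERT.

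A count without a variance model gave a similar size. In 40 genes (0.231%) the 3 doxycycline arrays lay above the 3 mock arrays in all 4 comparisons, and in 12 genes (0.0692%) they lay below. Of the 57 risers called in both lines 30 were among the 40, and of the 8 fallers 4 were among the 12. The remaining 10 genes above were MGAT5, FYTTD1, MED13L, GDE1, PTPRG, KDM5B, PTPN13, ITPR2, EPAS1 and ARID3B, and the remaining 8 below were HIST2H2AB (now H2AC21), CKAP2L, CDCA8, HJURP, CENPJ, DCBLD1, FRMPD4 and LGALS1, and all but HIST2H2AB, CKAP2L and CDCA8 were chosen after their values were seen. HIST2H2AB, a replication-dependent histone gene, had effects of -0.29 and -0.22 in HEK293 and of -1.63 and -1.62 in BJ-hTERT at 72 and 24 h. CKAP2L, a spindle protein, had effects of -0.29 in HEK293 (adjusted p = 0.0835) and -1.23 in BJ-hTERT (adjusted p = 2.86e-09).

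Gene lists of pathways, complexes and cell types were counted on the mean of the 4 effects and then in each line, beside all genes tested, whose median was 0.007 on the mean, 0.002 in HEK293 and 0.003 in BJ-hTERT. Of all genes, 5.44% rose and 4.63% fell on the mean. The shares were 1.78% and 0.375% in HEK293 and 8.38% and 7.74% in BJ-hTERT, so counts in the 2 lines have unlike backgrounds. Of 23 measured ERK feedback and output genes, 14 rose on the mean and 0 fell, with a median of 0.37. In HEK293 9 rose and 0 fell, in BJ-hTERT 7 rose and 3 fell, and only ETV4 and DUSP6 were called in both. ETV5, the relative of ETV4, rose by 1.63 in HEK293 and had an effect of 0.39 (adjusted p = 0.118) in BJ-hTERT. SPRY1, a feedback inhibitor of receptor signalling, had an effect of 0.05 in HEK293 and rose by 0.85 in BJ-hTERT. JUNB, an AP-1 subunit, rose by 0.79 in HEK293 with 0.14 in BJ-hTERT. For all 3 the line difference was called (1.24, -0.80 and 0.65).

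Of 15 AP-1 and stress factors, 9 rose on the mean and 0 fell, with a median of 0.40. NR4A3 and GADD45B were the 2 called in both lines. ATF3, a stress-induced factor, had effects of 0.01 in HEK293 and 1.72 in BJ-hTERT, and HBEGF, a ligand of the epidermal growth factor receptor, of 0.13 in HEK293 and 0.87 in BJ-hTERT, with a called line difference for each (-1.72 and -0.74). Of 33 HOX genes, 7 rose and 0 fell on the mean, and the medians were 0.21 in HEK293 and 0.10 in BJ-hTERT. Of the 33, 12 had 4 positive effects, against 8.89% of all genes, and 0 had 4 negative ones, against 7.67%. HOXA5 (0.21 in HEK293 and 1.36 in BJ-hTERT) and HOXA13 (0.44 in HEK293 and 1.10 in BJ-hTERT) had a called line difference, which was not called for HOXD10 and HOXA11 (-0.04, adjusted p = 0.891, and -0.56, adjusted p = 0.0531).

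Among 20 Polycomb and chromatin regulators 6 rose and 1 fell, BCOR and KDM6B in both lines. BCORL1, the relative of BCOR, rose by 0.47 ± 0.0911 on the mean and EZH1, a Polycomb methyltransferase, by 0.25 ± 0.0487. Of 7 MEF2 and class IIa deacetylase genes 3 rose on the mean: HDAC5 in both lines, and MEF2C (-0.18 in HEK293 and 1.38 in BJ-hTERT) and HDAC9 (0.29 in HEK293 and 0.84 in BJ-hTERT) with a call in BJ-hTERT. Of 17 Notch genes 5 rose and 0 fell. JAG1 was called in both lines, while DLL4 (0.88 in HEK293 against -0.03 in BJ-hTERT) and DNER (1.76 in HEK293 against 0.04 in BJ-hTERT) were called in HEK293 with a called line difference. NOTCH3 had 0.32 in HEK293 and 0.63 in BJ-hTERT.

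Of 17 marker genes for the tumours with this fusion, 8 rose and 0 fell, with BCOR and NUTM2A called in both lines. NUTM2A, counted among the 8, belongs to the family whose probe sets were read for induction itself. Its rise is therefore not a separate response. NGFR and NTRK3, neurotrophin receptors, rose by 1.99 and 1.80 in HEK293, with effects of 0.24 and 0.11 in BJ-hTERT. PTCH1 had effects of 0.34 in HEK293 and 1.19 in BJ-hTERT, and TWIST1 of 0.11 in HEK293 and 1.12 in BJ-hTERT, where both were called. The line difference was called for these 4 genes. Of 24 receptor tyrosine kinase and neurotrophin receptor genes 6 rose and 0 fell, among them IGF1R (0.85 in HEK293 and 0.15 in BJ-hTERT), and FLT1 was the 1 called in both.

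Of the lists that cover matrix and guidance genes, those other than the collagens held calls in both directions. Of 24 collagens 4 rose on the mean and 0 fell, and COL12A1 and COL4A1 were called in both lines. Of 36 other matrix proteins 9 rose and 5 fell, and of 26 matrix proteases and inhibitors 5 rose and 4 fell. The 23 semaphorin, plexin and neuropilin genes held 3 rises and 2 falls on the mean, and the 2 falls were NRP1 and SEMA3A. The BMP and TGF-beta list, which holds ID3, had 5 rises and 2 falls among 23 genes. Of 6 measured 14-3-3 genes other than YWHAE 0 were called on the mean by limma, with 1 up and 0 down at an unadjusted p under 0.05.

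**Figure D4:**
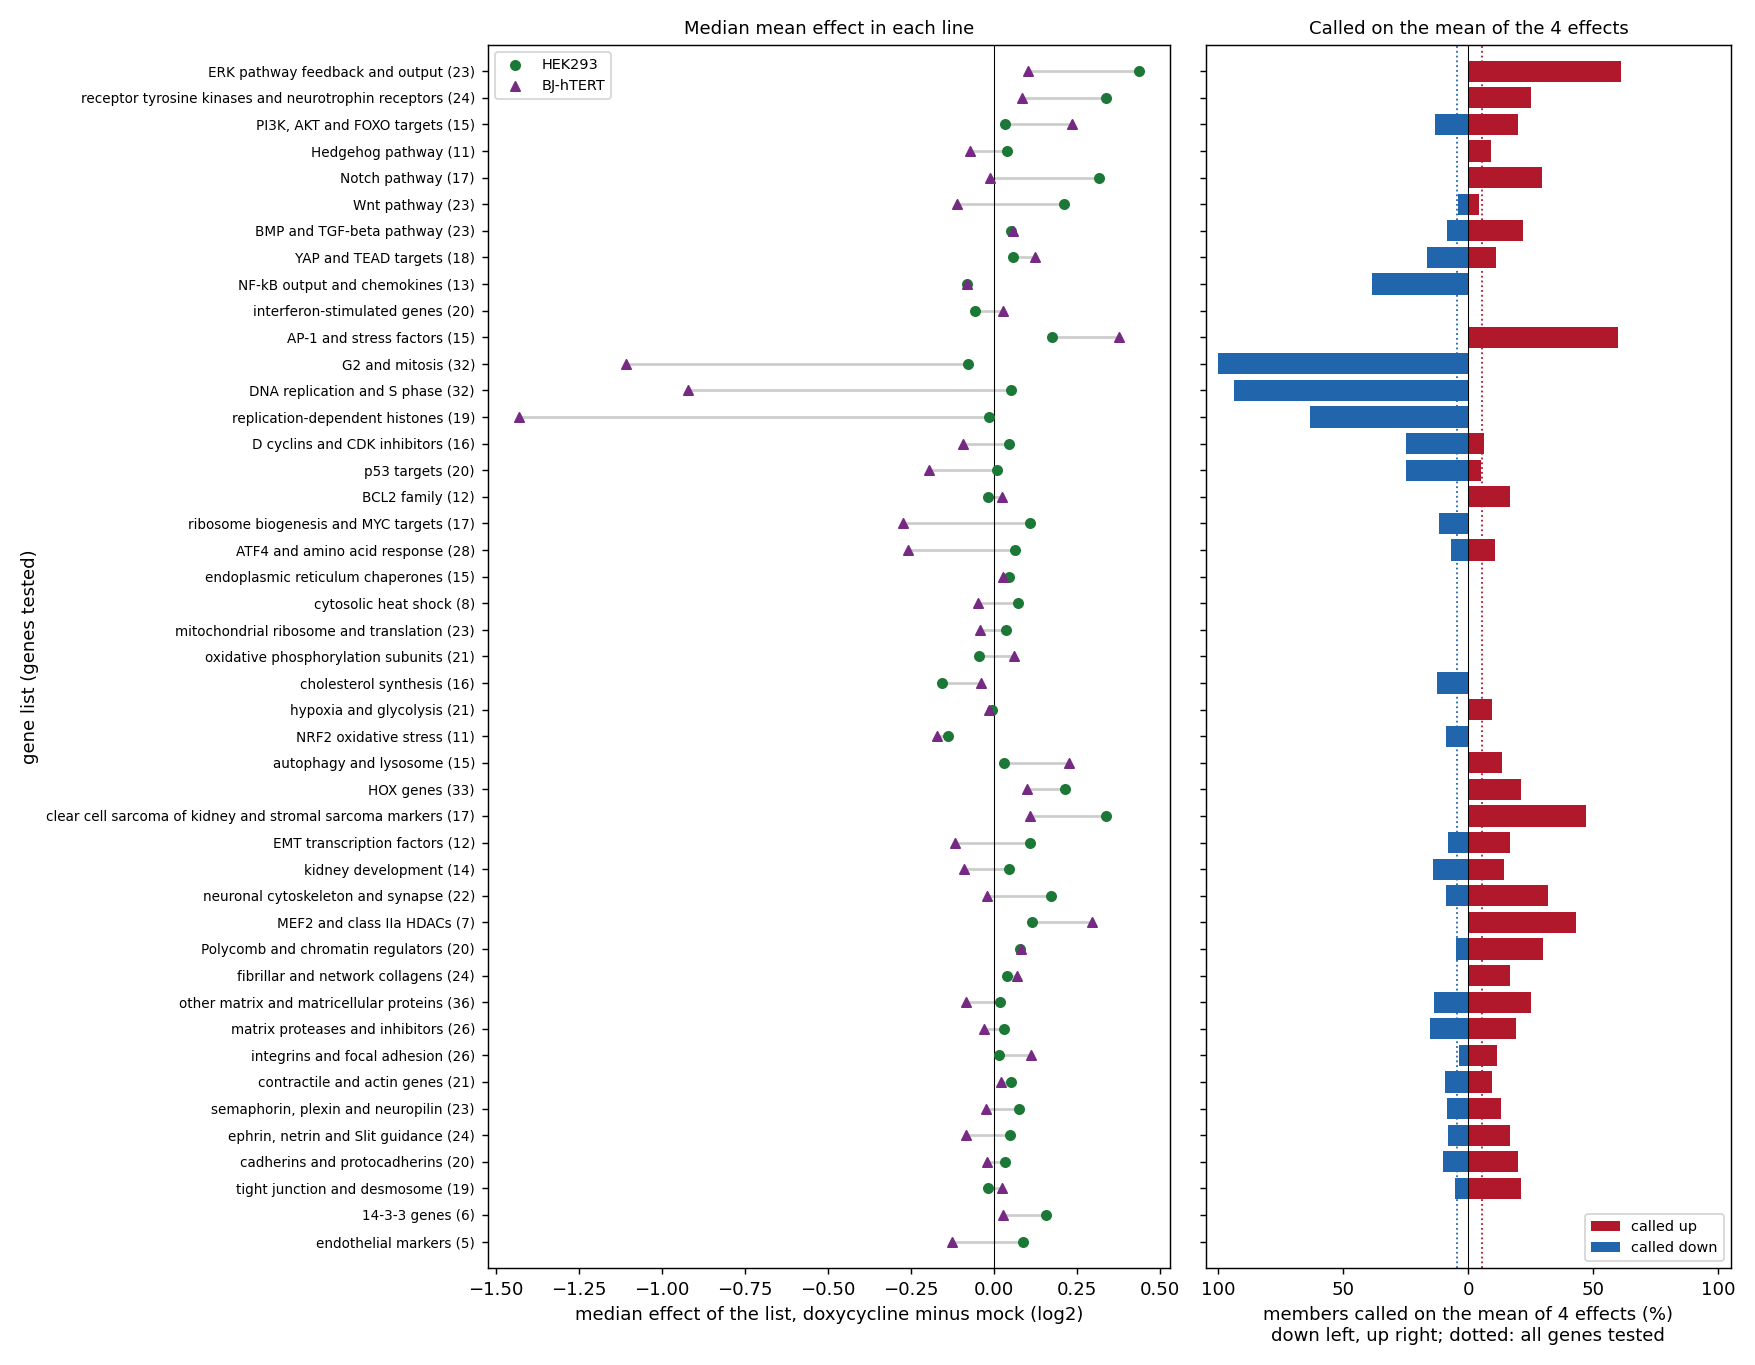
Left, median mean effect (log2) of each gene list with at least 5 tested members, HEK293 as circles and BJ-hTERT as triangles. Right, the percent of tested members called down (left) and up (right) on the mean of the 4 effects, with dotted lines at the share of all genes tested. All 32 G2 and mitosis genes are called down on the mean although the HEK293 median is -0.08 and the BJ-hTERT median is -1.11, while the ERK list has 14 of 23 called up.

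The lists with the most calls on the mean were those of G2 and mitosis and of DNA replication. The line difference was called in 30 of 32 G2 and mitosis genes, 30 of 32 DNA replication genes and 14 of 19 replication-dependent histones. In each of these the effect was lower in BJ-hTERT. Of 32 G2 and mitosis genes 32 fell on the mean, 32 fell in BJ-hTERT and 0 were called in HEK293 by limma, where 4 fell and 0 rose at an unadjusted p under 0.05. The HEK293 effect was above 0 in 3 of the 32, and 20 of the 32 had 4 negative effects, against 7.67% of all genes. That share is not a like comparison, because the falls called in BJ-hTERT largely fix the BJ-hTERT signs of these 32. The medians were -0.08 in HEK293 and -1.11 in BJ-hTERT. PLK1, a mitotic kinase, had -0.02 in HEK293 and -1.11 in BJ-hTERT. CCNA2, a cyclin, had -0.07 in HEK293 and -1.15 in BJ-hTERT. BUB1B, a checkpoint kinase, had -0.05 in HEK293 and -1.13 in BJ-hTERT, and CDCA8, a chromosomal passenger, had -0.26 in HEK293 and -1.25 in BJ-hTERT. DNA replication genes fell on the mean in 30 of 32 cases, with medians of 0.05 in HEK293 and -0.92 in BJ-hTERT. Replication-dependent histones fell in 12 of 19, HIST1H4D (now H4C4) with -0.08 in HEK293 and -1.5 in BJ-hTERT and HIST1H1E (now H1-4) with -0.13 in HEK293 and -1.43 in BJ-hTERT.

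Of 13 NF-kB and chemokine genes 5 fell and 0 rose on the mean. CCL2, a chemokine for monocytes, had effects of -0.41 in HEK293 and -1.06 in BJ-hTERT, and PTGS2, the inducible cyclooxygenase, of -0.38 in HEK293 and -0.71 in BJ-hTERT. Neither line difference was called, and neither gene was called in HEK293. TNFAIP3 (-0.08 in HEK293 and -1.11 in BJ-hTERT) and CXCL12 (0.08 in HEK293 and -1.25 in BJ-hTERT) fell in BJ-hTERT and were not called in HEK293, with called line differences of 1.03 and 1.32. F3, tissue factor, had -0.38 in HEK293 and -1.25 in BJ-hTERT. Of 20 interferon-stimulated genes 0 were called on the mean by limma, where 1 rose and 3 fell at an unadjusted p under 0.05.

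Doxycycline itself is known to inhibit mitochondrial translation and to raise targets of ATF4. Of 23 mitochondrial ribosome and translation genes 0 were called on the mean (0 up and 3 down at an unadjusted p under 0.05), and of 21 oxidative phosphorylation subunits 0 (0 up and 1 down). In the list of ATF4 targets and amino acid response (28 tested) 3 members rose on the mean and 2 fell, with medians of 0.06 in HEK293 and -0.26 in BJ-hTERT, and in BJ-hTERT 2 rose and 9 fell. Mitochondrially encoded genes had no tested member. The drug's own part in any gene above was not tested.

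The difference between the lines was called in 1073 genes with the higher effect in HEK293 (6.19%) and 907 with the higher effect in BJ-hTERT (5.23%). Some large means came from 1 line. VSTM2B, which encodes a protein with an immunoglobulin domain, had 3.35 in HEK293 and -0.38 in BJ-hTERT. ELFN1 (2.20 in HEK293 against 0.23 in BJ-hTERT), GABBR2, a GABA receptor subunit (1.84 in HEK293 against -0.33 in BJ-hTERT), and PLXNC1, a semaphorin receptor (1.30 in HEK293 against -0.12 in BJ-hTERT), followed that pattern. OCLN, the tight junction protein occludin, had 0.0 in HEK293 and 2.04 in BJ-hTERT. HAS2, which makes hyaluronan, had 0.37 in HEK293 and -2.32 in BJ-hTERT. UST, a sulfotransferase, ABCB4, a phospholipid transporter, GOLGA8B and COL11A1 rose in BJ-hTERT, by 1.71, 1.84, 2.59 and 0.95, and were not called in HEK293. The line difference was called for each gene of this paragraph.

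Opposite calls in the lines were found for 35 genes, 21 up in HEK293 and down in BJ-hTERT and 14 the other way. The 21 were 6.8% of the HEK293 rises, against 7.74% of all genes called down in BJ-hTERT. The 14 were 21.5% of the HEK293 falls, against 8.38% of all genes called up in BJ-hTERT. Of the falls in HEK293, more were called up (14) than down (8) in BJ-hTERT. PCDH10, a protocadherin, rose by 1.51 in HEK293 and fell by 0.40 in BJ-hTERT. FOSL1, an AP-1 subunit, rose by 0.79 in HEK293 and fell by 1.16 in BJ-hTERT, HIST1H3G (now H3C8) rose by 1.0 in HEK293 and fell by 1.48 in BJ-hTERT, and FAXDC2 fell by 0.71 in HEK293 and rose by 1.18 in BJ-hTERT. These last 3 genes were chosen after their values were seen.

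The mean effect at 72 h minus that at 24 h was called for 1 gene up (0.00577%) and 3 down (0.0173%), and 1288 genes passed an unadjusted p under 0.05. The genes were RNU1-124P (1.45), a pseudogene of a small nuclear RNA, RIN2 (-0.84), MCEE (-0.77) and EXOSC7 (-0.76), and all but MCEE were chosen after their values were seen. MCEE, an enzyme of propionate breakdown, had effects of -0.39 at 72 h and 0.28 at 24 h in HEK293, and of 0.06 at 72 h and 0.94 at 24 h in BJ-hTERT. EXOSC7, a subunit of the RNA exosome, had -0.41 at 72 h and 0.50 at 24 h in HEK293, and -0.43 at 72 h and 0.17 at 24 h in BJ-hTERT. None of these 4 was called in both lines in 1 direction.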

How the data were processed

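RNA of 24 samples of cultured cells was hybridised to Affymetrix Human Gene 2.1 ST arrays. The deposited values are log2 probe set signals; GCOS, RMA and Affymetrix Expression Console are named per the submitters' processing notes and oligo and limma in the design text, with no versions. Which arrays were normalised together is not given in the sources used here.

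Of 352859 probe sets, 257971 carry 1 gene symbol in the probe annotation, 17460 several and 77428 none. Gene levels are averages over the probe sets with 1 symbol (25029 genes, median 8 probe sets). Genes with no group mean at or above 2.83 log2, the 40th percentile of all group means, were left out (7700). Of the array's symbols 23358 are current, 1621 were updated and 50 found no match. Limma 3.58.1 (R 4.3.3, with statmod 1.5.0 and version 1.17.8 of data.table) was fitted to all 24 arrays as 8 group means with eBayes (16 residual degrees of freedom, median residual SD 0.236 log2). Benjamini-Hochberg adjustment ran over all 17329 genes, with calls at an adjusted p under 0.05. The contrasts were the 4 effects, their mean, the mean within each line, the difference between lines and that between times. A gene counted for both lines when called in each line mean with 1 sign. The 4 comparisons share no mock arrays. Values after ± are standard errors of the contrast, with 3 arrays a group, and array number limits the precision.

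The procedure was tested on simulated data. Genes named were picked by a rule: called in all 4 comparisons; the largest 15 rises and 15 falls on the mean with 1 sign; the 15 largest in both lines by the smaller line mean; the 4 members of each of 48 lists with the smallest p; the 6 largest line and time differences in each direction; and NUTM2 and 14-3-3 genes. All other genes named, which include the remaining members of the count called in both lines, were chosen after their values were seen. The question, lists and members were chosen with earlier results of these data known. Alternatives were another summary of probe sets, filters, normalizations and variance models, single times and leaving out each array.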

Additional observations from a re-analysis of the deposited data

Results flagged for a closer look

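The doxycycline effect differed between the lines by the limma interaction (adjusted p under 0.05) in 10 of the 57 risers called in both lines (17.5%). Among all genes tested 6.19% had a called higher effect in HEK293 and 5.23% in BJ-hTERT. These 10 risers moved in 1 direction but not by the same amount. The mean effect in HEK293 minus that in BJ-hTERT (log2) was PDE4A (0.77), FSCN1 (0.71), RTN4RL1 (0.70), COL12A1 (0.67), PDGFA (0.65), ETV4 (0.53) and HIVEP2 (0.35) where HEK293 had the larger rise, and LRRC49 (-0.68), PELI2 (-0.48) and JAG1 (-0.47) where BJ-hTERT had it.

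Among cell division and histone genes, the same difference was HIST1H3G (2.48), HIST1H4D (1.42), HIST2H2AB (1.37), HIST1H1E (1.30), PLK1 (1.09), BUB1B (1.08), CCNA2 (1.07), CDCA8 (0.99) and CKAP2L (0.94), each with a fall in BJ-hTERT. Other genes with a higher effect in HEK293 were VSTM2B (3.73), HAS2 (2.69), GABBR2 (2.17), ELFN1 (1.98), FOSL1 (1.95), PCDH10 (1.91), NGFR (1.75), DNER (1.72), NTRK3 (1.69), PLXNC1 (1.42), CXCL12 (1.32), ETV5 (1.24), TNFAIP3 (1.03), DLL4 (0.91), F3 (0.87), IGF1R (0.70) and JUNB (0.65). Those with a higher effect in BJ-hTERT were GOLGA8B (-2.11), OCLN (-2.04), FAXDC2 (-1.89), ATF3 (-1.72), UST (-1.56), MEF2C (-1.56), ABCB4 (-1.46), HOXA5 (-1.14), COL11A1 (-1.01), TWIST1 (-1.01), RIN2 (-0.95), PTCH1 (-0.86), SPRY1 (-0.80), HBEGF (-0.74), HOXA13 (-0.65) and MCEE (-0.56).

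The mean effect at 72 h differed from that at 24 h in 4 genes, by EXOSC7 (-0.76), MCEE (-0.77), RIN2 (-0.84) and RNU1-124P (1.45) log2. For MCEE, RIN2 and EXOSC7 the 24 h effect was the higher. Causes of these differences were not tested.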

How the results depend on the processing

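With the median of probe sets, the mean of the 4 effects called 494 genes up and 521 down, both lines 19 and 1, all 4 comparisons 1, arrays apart above 22, the line difference 676 and 492, and the time difference 0 and 0. Of the 19 and 1 called in both lines there, 15 and 0 were among the 57 and 8 of the main fit. Genes called in all 4 comparisons numbered 6 with the brighter probe sets or with trend and robust eBayes, 5 with the filter at the 60th percentile, at least 3 probe sets or array weights, and 0 with each comparison fitted alone. Without a filter both lines gave 4 down, and with array median centring, which shifted the median mean effect by -0.0175 log2, arrays were apart below in 19. With each line fitted alone both lines gave 33 up and 3 down, and with at least 1.5-fold 13 and 0 (113 and 104 on the mean). The 72 h arrays alone called 303 up and 330 down on the mean (11 and 2 in both lines), and the 24 h arrays alone 282 and 296 (2 and 0), with fewer arrays and after the data were seen. The time difference went to 0 up under the brighter probe sets, no filter, the 60th percentile, at least 3 probe sets, quantile normalization, and trend and robust eBayes, and to 0 down with no filter and with trend and robust eBayes.

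Whether the replicate numbers pair the arrays is not given and could not be settled from 3 arrays a group. Deviations of same-numbered doxycycline and mock arrays correlated at -0.0252 to 0.086 in 12 pairs. For arrays of other numbers the range was -0.047 to 0.0273 in 24 pairs. A replicate block within line and time left 32 genes up and 3 down in both lines, a replicate block within line 5 down, and either block 0 up and 0 down for the time difference.

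Leaving out each array in turn gave 852 to 909 genes up and 724 to 815 down on the mean, 38 to 51 and 4 to 8 in both lines, 2 to 5 in all 4 comparisons, 41 to 56 above and 12 to 26 below with arrays apart, 964 to 1088 and 780 to 907 for the line difference and 0 to 2 and 0 to 5 for the time difference. Groups of arrays that are apart stay apart when 1 array is left out, so the arrays-apart range is no check of stability. The falls in both lines were 4 or 5 without 12 of the 24 arrays (4 without HEK293 mock 24 h replicate 1, HEK293 doxycycline 24 h replicates 1 and 3, HEK293 mock 72 h replicate 3 or BJ-hTERT doxycycline 24 h replicate 1), 5 genes were called in all 4 without BJ-hTERT mock 24 h replicate 3, and 26 and 20 arrays-apart falls stood without HEK293 mock 24 h replicate 3 and HEK293 doxycycline 24 h replicate 3. Of the 57 and 8 genes called in both lines, 23 and 3 kept that call without each array, and 8 (BHLHE41, COL12A1, DSP, ETV4, FSCN1, HOXD10, NUTM2B and ZSWIM6) and 0 kept it also in 13 alternatives other than the fold minimum and single times. Changes of sign in the mean effects of named genes were counted only where the main fit or the alternative called the gene. Those counted were MCEE with the 72 h arrays alone (-0.17) and EXOSC7 with the 24 h arrays alone (0.34).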
